A study of Mus musculus with 4 samples.

Results

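Alveolar macrophages live on the air side of the alveoli, where they take up surfactant lipid, inhaled particles and dying cells. They depend on the growth factor GM-CSF and on the nuclear receptor PPARγ, and they carry the scavenger receptor Marco and the carbonic anhydrase Car4. Under type 2 cytokines, macrophages can take on alternative activation, in which Chil3, Arg1 and the chemokines Ccl17 and Ccl24 are made, whereas tissue injury or digestion can bring on inflammatory genes such as Il1b, Il1a and Il6. Quiet alveolar macrophages were taken here as cells with alveolar macrophage markers and at most 1 UMI over Inhba, Il1a, Il6 and Gdf15. Il1b was not part of the rule, and quiet cells held it at 68.4 to 258 CPM (UMIs per 1000000 UMIs of the quiet cells).

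Lung immune cells (CD45.2+, live-sorted) of male C57BL/6 mice aged 5 to 10 weeks were profiled by droplet single-cell RNA sequencing of 3′ ends. All mice carried loxP-flanked Ift20, a gene of intraflagellar transport, and mice labelled KO also carried CD4 cre, which acts in developing T cells and is not directed at macrophages. Mice received DPBS or 25 µg of papain, a plant protease used as an allergen, by the nose on 3 consecutive days, with a challenge on day 14 and harvest on day 15. Each of the 4 groups was 1 library (DPBS WT, DPBS KO, then Papain WT, Papain KO, the order of every run of 4 values below), and the number of mice pooled in it was not given in the sources used here. No comparison between groups therefore has a replicate check, no test of a difference could be made, and every interval below covers counting error only.

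A barcode was called quiet when it had more than 200 genes, under 15% mitochondrial UMIs, at least 3 of 6 markers (Marco, Car4, Krt79, Pparg, Atp6v0d2, Ear1), no Cd3e or Cd79a, not both Mki67 and Top2a, and at most 1 UMI summed over Inhba, Il1a, Il6 and Gdf15. The rule found 757 cells among 28805 barcodes, namely 294 and 161 from the DPBS libraries (WT, KO) and 167 and 135 from the Papain libraries (WT, KO). The cells were thus chosen by the levels of these genes, and those levels are no finding. Median UMIs per quiet cell ran from 14786 in Papain WT to 17751 in Papain KO, and 13, 34, 31 and 1 cells in the order of the groups above had under 5000 UMIs. The summed quiet cells held 4739873, 2212016, 2263996 and 2434512 UMIs, so equal counts are not equal levels. Libraries shared 7 to 16 barcodes per pair, and none of the shared barcodes was quiet in both.

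Markers that the rule did not use were read as a description of the label, with no test. The 10 further alveolar macrophage markers summed to 22232 to 46744 CPM against 1696 to 4734 CPM in all other cells. Siglecf, a sialic acid receptor of alveolar macrophages and eosinophils, was detected in 265 of 294, 125 of 161, 110 of 167 and 111 of 135 cells. The eosinophil genes Epx, Prg2, Prg3 and Ccr3 were at 0 in every library, as were the basophil and mast cell genes Mcpt8, Cpa3, Fcer1a and Ms4a2. Markers of interstitial macrophages summed to 28.0 to 107 CPM against 230 to 300 CPM in other cells, with Folr2 at 0. The label held least at its edge: the cells with exactly 3 markers (8, 16, 15 and 5 cells) had Il1b at 638, 678, 1545 and 1064 CPM, whereas cells with all 6 markers had it at 73.4, 34.9, 130 and 67.5 CPM. Cells with a summed state count of 1 numbered 120, 69, 60 and 47, and the cells just outside, with a count of 2, numbered 75, 53, 55 and 27.

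Quiet cells made up 22.99% (WT) and 14.5% (KO) of marker-defined alveolar macrophages after DPBS, and 21.8% (WT) and 30.6% (KO) after papain. Exact 95% binomial intervals were 20.7 to 25.4%, 12.5 to 16.7%, 18.9 to 24.9% and 26.3 to 35.1%, so that DPBS KO was lowest and Papain KO highest. The shares of all cells that passed the quality filter were 3.61%, 2.82%, 2.09% and 2.37%. The shares moved with depth: thinned to 3000 UMIs per barcode, the shares of alveolar macrophages were 53.8, 47.1, 54.0 and 63.1%. Barcodes with under 3000 UMIs were left out there, and the rule was applied again to the thinned counts. The thinned quiet cells are thus not the same set of cells. Thinned shares of all barcodes with at least 3000 UMIs that passed the quality filter were 9.06, 9.08, 5.16 and 5.08%. KO was thus no longer below WT at rest or above WT after papain on that denominator.

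**Figure D1:**
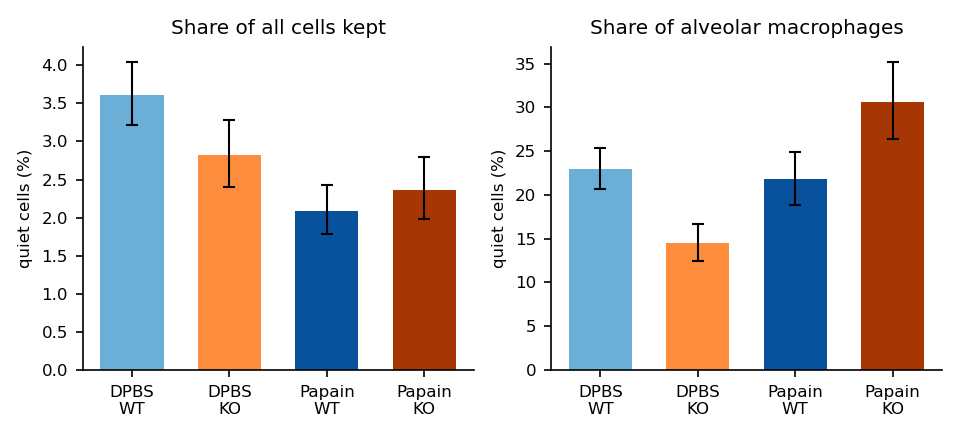
Share of quiet cells in each library, as a percentage of all cells kept (left) and of marker-defined alveolar macrophages (right); bars are shares and lines are exact 95% binomial intervals. Among alveolar macrophages the share was lowest in DPBS KO (14.5%) and highest in Papain KO (30.6%).

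The first comparison asked how quiet cells differed after papain in mice without CD4 cre. Quiet cells of Papain WT held a small group of genes at levels that were close to 0 in DPBS WT. Ccl17, a chemokine that attracts T cells, had 4, 27, 701 and 6 UMIs. Rnase2a, an eosinophil-associated ribonuclease, had 1, 62, 332 and 0 UMIs. Fbp1, an enzyme of gluconeogenesis, had 0, 43, 321 and 0 UMIs. Papain WT stood highest for all of them, and DPBS KO was second, well above DPBS WT and Papain KO.

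Regulatory sequence upstream of the starts of these 3 genes and of Chil3, a chitinase-like lectin that was abundant in every library, is shown because all 4 were highest in Papain WT. The 250 bases before each RefSeq start (GRCm38.p6) lie at chr3:106167565-106167814 on the minus strand for Chil3, chr8:94810203-94810452 on the plus strand for Ccl17, chr14:51256113-51256362 on the minus strand for Rnase2a and chr13:62888283-62888532 on the minus strand for Fbp1. They are printed 5′ to 3′, with matches to TTC, any 4 bases, then GAA, a pattern that STAT6 can bind and that reads the same on both strands, in capitals.
Chil3: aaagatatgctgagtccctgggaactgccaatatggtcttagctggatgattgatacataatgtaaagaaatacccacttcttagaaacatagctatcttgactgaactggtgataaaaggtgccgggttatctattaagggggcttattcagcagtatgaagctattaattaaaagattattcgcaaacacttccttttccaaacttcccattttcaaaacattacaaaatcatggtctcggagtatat
Ccl17: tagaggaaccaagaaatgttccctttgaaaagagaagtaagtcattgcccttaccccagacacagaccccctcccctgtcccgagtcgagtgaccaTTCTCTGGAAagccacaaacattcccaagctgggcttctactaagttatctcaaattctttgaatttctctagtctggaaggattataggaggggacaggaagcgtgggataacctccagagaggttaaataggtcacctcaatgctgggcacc
Rnase2a: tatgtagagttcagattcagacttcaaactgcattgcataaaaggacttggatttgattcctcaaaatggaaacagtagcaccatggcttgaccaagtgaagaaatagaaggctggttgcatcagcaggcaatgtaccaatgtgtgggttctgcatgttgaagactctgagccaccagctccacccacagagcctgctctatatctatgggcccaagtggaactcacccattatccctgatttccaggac
Fbp1: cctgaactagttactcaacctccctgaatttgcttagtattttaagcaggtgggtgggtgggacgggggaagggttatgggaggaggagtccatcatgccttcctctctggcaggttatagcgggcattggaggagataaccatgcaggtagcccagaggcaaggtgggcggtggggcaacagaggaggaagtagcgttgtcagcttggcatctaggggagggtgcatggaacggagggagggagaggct
Only the Ccl17 window held the pattern, with its first base at -154 from the start. Of 17 alternative activation genes with a RefSeq window, 3 held it (Ccl17, Pdcd1lg2 and Retnla), and so did 6.76% of 27025 genes. A match in these letters is a description and says nothing of binding.

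In the papain comparison in WT, 227 of 7617 genes (2.98%) were at least 1.5-fold higher and 237 (3.11%) at least 1.5-fold lower. Of 15 alternative activation genes measured above 10 CPM on average, 7 were higher and none lower, with a median log2 ratio of 0.38 against -0.04 for all genes. Arg1, Ccl24, Ccl17 and Rnase2a passed that level filter only through the libraries in which they were high, so the count describes the list and tests nothing. Chil3 was at 13594, 14715, 38557 and 14343 CPM, with a log2 ratio of 1.504 (95% interval 1.49 to 1.52). Fn1, the matrix protein fibronectin, stood at 579, 562, 1036 and 764 CPM (log2 ratio 0.84, 0.76 to 0.92). Cells with high levels carried much of that: among cells in which none of the 5 genes counted below was detected, the Fn1 ratio was 0.23 (0.12 to 0.34). Cish, a suppressor of cytokine signalling, had 146, 75, 112 and 91 UMIs (0.68, 0.32 to 1.05).

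Further genes were also highest in Papain WT. Mmp12, macrophage elastase, had 23, 121, 352 and 24 UMIs. Arg1, the arginine-degrading enzyme arginase, had 4, 16, 89 and 4 UMIs. Ccl24, an eosinophil-attracting chemokine, had 0, 39, 56 and 0 UMIs. Again DPBS KO came second for each. Wfdc17, a secreted protein with a whey acidic protein domain, was at 44.3, 78.2, 288 and 72.3 CPM. The protease Lgmn (legumain) was at 202, 252, 396 and 162 CPM, and the collagen-degrading cathepsin Ctsk at 312, 279, 565 and 297 CPM. These 3 genes had narrower intervals than the rarer ones: the log2 ratios of Papain WT over DPBS WT were 2.70 (2.48 to 2.93) for Wfdc17, 0.98 (0.84 to 1.11) for Lgmn and 0.86 (0.75 to 0.97) for Ctsk. Among cells with none of the 5 genes counted below they were 0.78 (0.42 to 1.13), 0.41 (0.23 to 0.59) and 0.37 (0.23 to 0.51), the latter pair inside 1.5-fold. The lysosome list as a whole had 3 of 26 genes higher and none lower, against 2.98% and 3.11% of all genes. Its median log2 ratio was 0.08, against -0.04 over all genes.

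**Figure D2:**
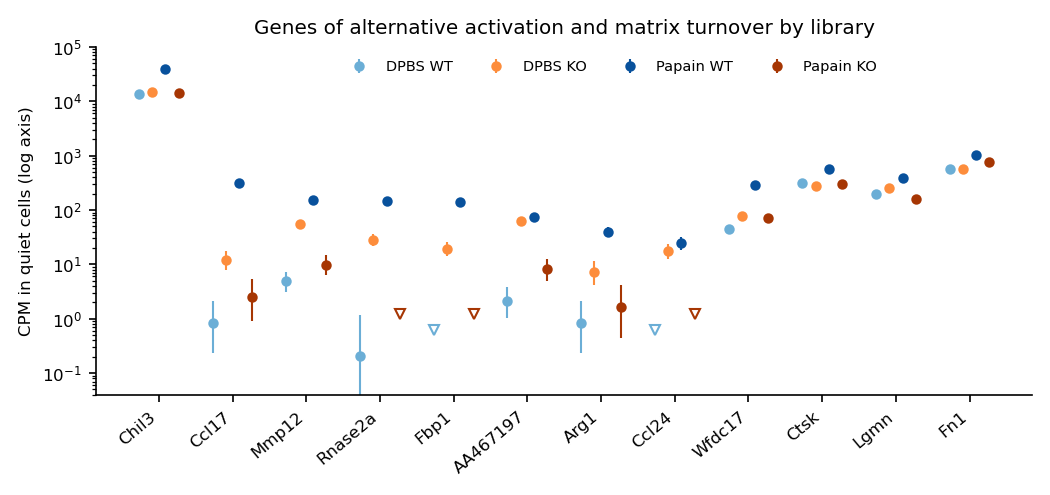
Level of 12 genes in quiet cells of each library, in CPM on a log axis; points are library values, lines exact 95% Poisson intervals, and open triangles mark a library with 0 UMIs at the level that 3 UMIs would give. Papain WT is highest for every gene, from 24.7 CPM for Ccl24 to 38557 CPM for Chil3.

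The genes were concentrated in few cells. Counting Ccl17, Rnase2a, Fbp1, Mmp12 and AA467197 (the mouse form of NMES1, chosen with the others after their values were seen), 22 of 167 Papain WT cells (13.2%, 95% interval 8.44 to 19.3%) had at least 3 of them detected. None of the 294 DPBS WT cells did, which allows a share of up to 1.02% at 3 counts (exact upper limit 1.25%), and none of the 135 Papain KO cells, which allows up to 2.22% (exact 2.70%). These limits are for cells with UMIs of the genes, not for cells expressing them. In DPBS KO, 2 of 161 cells did. In DPBS KO the reads came mostly from single cells: 1 cell held 98 of the 138 UMIs of AA467197 and 1 held 22 of the 27 of Ccl17. In Papain WT B cells, which should lack these genes, each of the 5 was detected in at most 1.11% of cells thinned to 2000 UMIs, against 6.17 to 11.1% of quiet cells. Median depth before thinning was 4455 and 14786 UMIs.

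The 22 cells differed from the 114 Papain WT cells with none of these genes in levels of further genes. In summed counts Chil3 was at 85321 against 26511 CPM, though single cells of both groups varied widely. S100a6, a calcium-binding protein, was at 909 against 50.8 CPM. The MHC class II chain H2-Aa was at 946 against 129 CPM and its invariant chain Cd74 at 3198 against 510 CPM. Fabp1, a fatty acid-binding protein of alveolar macrophages, ran the other way, at 61.4 against 518 CPM, and so did Siglecf, at 39.9 against 164 CPM. Of the 22 cells 7 had exactly 3 of the 6 markers of the rule, against 7 of the 114. Pparg was detected in 50% against 85.1% of cells, Ccr2, a monocyte chemokine receptor, in 27.3% against 3.51%, and C1qb, a complement gene of interstitial macrophages, in 13.6% against 0.877%. Their part in the levels of the 22 cells was not tested. Among the alveolar macrophages excluded from the quiet set by the state genes, 70 of 567 Papain WT cells had at least 3 of the 5 genes. So did 1 of 903 excluded cells in DPBS WT, 10 of 891 in DPBS KO and 7 of 284 in Papain KO. The genes named above differed in the same directions among the excluded Papain WT cells, but Pparg hardly did, at 82.9% against 83.8% of cells. Chil3 was also higher in Papain WT cells with none of the 5, at a log2 ratio of 0.98 (0.96 to 0.99) over the DPBS WT cells with none. Over all quiet cells, 8 interstitial macrophage markers summed to 47.7, 28.0, 107 and 89.96 CPM. The 6 classical monocyte markers summed to 642, 603, 1097 and 888 CPM, of which Fn1 made up the most, and the 5 without Fn1 to 62.9, 41.6, 60.95 and 124 CPM, highest in Papain KO.

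**Figure D3:**
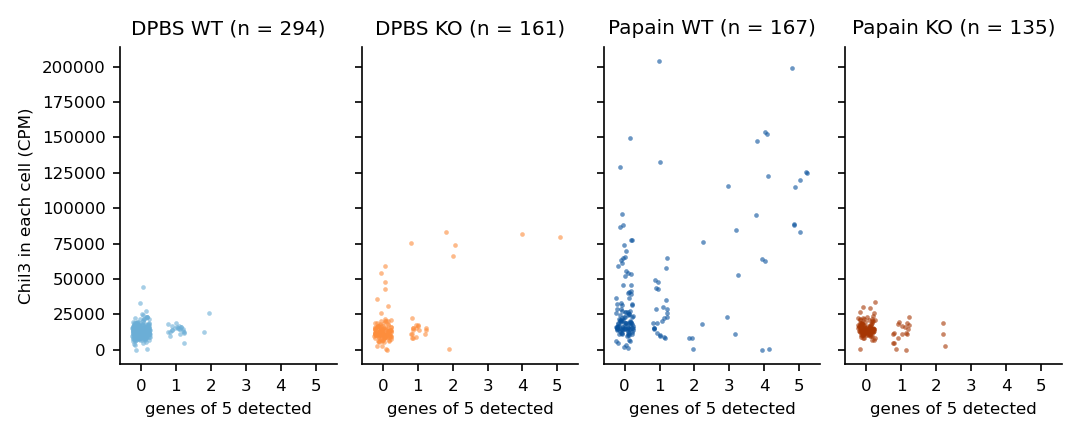
Chil3 level of each quiet cell (CPM) by how many of Ccl17, Rnase2a, Fbp1, Mmp12 and AA467197 were detected in it, 1 panel per library and 1 point per cell. In the summed counts of the 22 Papain WT cells with 3 to 5 genes, Chil3 was at 85321 CPM. Single cells varied widely: a Papain WT cell with 4 genes had 77.2 CPM, and a cell with 0 genes had 95920 CPM.

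The second comparison asked about papain in KO mice. There 223 genes (2.93%) were at least 1.5-fold higher and 220 (2.89%) lower. Genes past 1.5-fold in both genotypes numbered 33 higher (0.433% of all genes) and 15 lower (0.197%). About as many of the 7617 genes went opposite ways, with 31 higher in WT and lower in KO and 16 lower in WT and higher in KO. Of the 15 alternative activation genes 1 was higher and 5 were lower, with a median log2 ratio of -0.12 against -0.01 over all genes. Chil3 stood at a log2 ratio of -0.04 (-0.06 to -0.02), against 1.504 in WT. Among cells with none of the 5 genes counted above it was at 0.16 (0.13 to 0.18). In the excluded alveolar macrophages it was at 0.26 (0.25 to 0.27). Over all quiet cells Lgmn was at -0.64 (-0.83 to -0.45), but in the excluded alveolar macrophages it was at 0.0028 (-0.083 to 0.088). The 5 lower genes were Arg1, Ccl17, Ccl24, Rnase2a and Pdcd1lg2. As in WT, Arg1, Ccl17, Ccl24 and Rnase2a passed the level filter only through libraries in which they were high, so this count too tests nothing. The DPBS KO side of this comparison rested on few cells, with all 16 UMIs of Arg1 in 1 cell and the 39 of Ccl24 in 2 cells. Without the top cell of each gene, 2 genes were higher and 3 lower. Among cells with no state UMI the direction turned for Ccl17 (log2 ratio 1.20). The excluded alveolar macrophages did not show this: there 5 of the 15 genes were higher in Papain KO than in DPBS KO and none was lower. The shares of all genes there were 1.03% higher and 0.379% lower. Mmp12 was at 44.4 against 13.6 CPM.

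Some of the lipid handling genes were lower in Papain KO quiet cells. Of 22 measured, 8 were lower in Papain KO than in DPBS KO and none higher (36.4%, against 2.89% of all genes). The median log2 ratio was -0.20 against -0.01 over all genes. In WT 1 gene, Apoe, was higher and none was lower. Scd1, which makes unsaturated fatty acids, was at 15.2, 21.2, 21.6 and 4.93 CPM in the 4 libraries (log2 ratio -2.11, -3.16 to -1.17). Abca1, a cholesterol exporter, was at 39.9, 74.1, 41.1 and 28.7 CPM (-1.37, -1.79 to -0.95). Cd36, a scavenger receptor for lipids, was at 259, 309, 297 and 188 CPM (-0.72, -0.89 to -0.55). Fabp4, a fatty acid-binding protein, was at 247, 303, 252 and 179 CPM (-0.76, -0.94 to -0.59). All 4 genes were lowest in Papain KO, and Abca1, Cd36 and Fabp4 were highest in DPBS KO. The count of 8 was the same without shallow cells, without each gene's top cell and under every other scaling tried. Scd2, Apoc1, Apoe and Gpnmb were the other lower genes. Apoe, a lipid carrier, had 371 of its 508 Papain WT UMIs in 1 cell, and without top cells no lipid gene was past 1.5-fold in WT. In the excluded alveolar macrophages 3 of the 22 genes were lower and 1 was higher in the same comparison. The shares were 13.6% and 4.55%, against 0.379% and 1.03% of all genes. Scd1 was at -0.91 and Abca1 at -0.83, but Cd36 (-0.35), Fabp4 (-0.49), Apoc1 (-0.58) and Gpnmb (-0.24) were inside 1.5-fold. Apoe ran the other way there, at 1.42 (1.26 to 1.57).

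**Figure D4:**
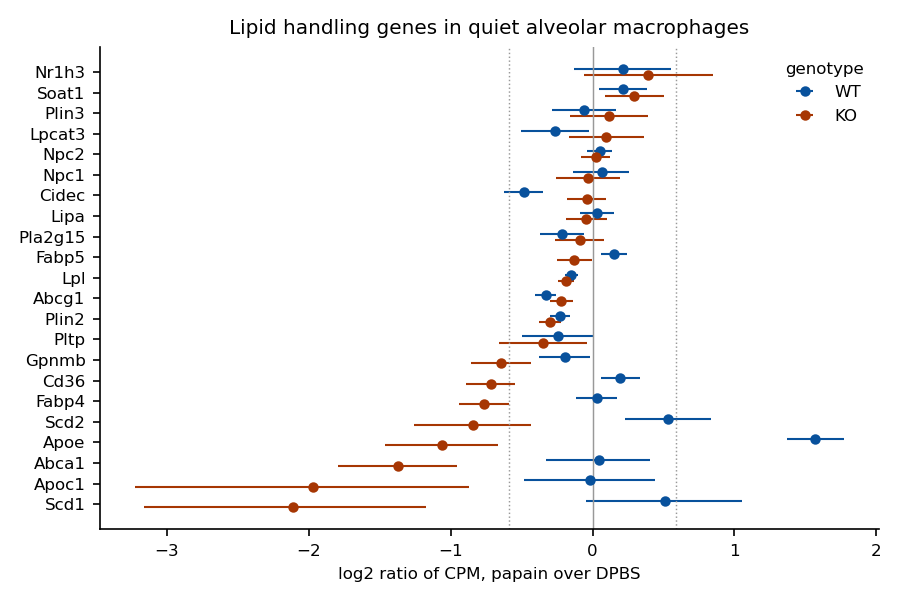
Log2 ratio of papain over DPBS for the 22 lipid handling genes in quiet cells, in WT and in KO; lines are 95% intervals for counting error and dotted lines mark 1.5-fold. 8 genes lie below the lower line in KO, whereas in WT 1 gene, Apoe, lies above the upper line.

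KO against WT was compared at rest and after papain. Ift20 itself did not differ in quiet cells by more than counting error: 68.8, 62.4, 63.6 and 60.4 CPM, with log2 ratios of -0.14 (-0.44 to 0.15) at rest and -0.08 (-0.42 to 0.27) after papain. In the T cell gate, where CD4 cre acts, it was at 56.8, 19.4, 56.5 and 18.4 CPM. At rest 272 genes (3.57%) were higher and 118 (1.55%) lower in KO, and after papain 333 (4.37%) were higher and 186 (2.44%) lower. Of the 272 and 333 higher genes 28 were shared (10.3% and 8.41% of them, 0.368% of all genes), and of the lower ones 7 (0.0919% of all genes). Of the 7617 genes, 41 were higher in KO at rest and lower after papain, and 18 were lower at rest and higher after papain. Each comparison shares a library with 2 of the others, so their values are set side by side and not counted as separate support.

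After papain, some alternative activation and lipid genes were lower in KO quiet cells than in WT. Of the 15 alternative activation genes 5 were lower and none higher, 33.3% against 2.44% of all genes (median log2 ratio -0.44 against 0.06 over all genes). Arg1, Ccl24, Ccl17 and Rnase2a passed the level filter only through libraries in which they were high, above all Papain WT. This count therefore describes the list and tests nothing. Chil3 was at -1.43 (-1.45 to -1.41), Lgmn at -1.29 (-1.46 to -1.12) and Wfdc17 at -2.00 (-2.25 to -1.75). Among cells with none of the 5 genes the ratios were -0.83 for Chil3, -0.81 for Lgmn and -0.45 for Wfdc17, the last inside 1.5-fold, and in the excluded alveolar macrophages Wfdc17 was at -0.0068. Ccl17 was at -6.97 (-8.42 to -5.84), while Rnase2a and Fbp1, with 0 UMIs in Papain KO, were at least 119-fold and 115-fold lower at 3 counts. The excluded alveolar macrophages had smaller ratios, with Ccl17 at -2.47 (-2.70 to -2.24) and Fbp1 at -2.30 (-2.60 to -2.00). Fbp1 was at 17.8 CPM in Papain KO there, against 87.4 CPM in Papain WT. Of the 22 lipid handling genes 5 were lower and none higher (22.7%). In the other direction, Gpr141, an orphan receptor, was at 10.8, 9.49, 3.53 and 22.6 CPM, and Adgrg1, an adhesion receptor, was at 19.8, 20.8, 5.74 and 22.2 CPM. Both were lowest in Papain WT, at a log2 ratio of KO over WT of 2.68 and 1.95. Epcam, an adhesion molecule, was likewise lowest in Papain WT, at 56.5, 74.6, 28.7 and 70.2 CPM (1.29, 0.87 to 1.73). In the excluded alveolar macrophages the ratios of KO over WT after papain were 1.57 for Gpr141 and 1.12 for Epcam. That of Adgrg1 was 0.20 there (-0.26 to 0.65).

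At rest, the inflammatory list had 5 of its 11 measured genes higher in KO and none lower, 45.5% against 3.57% of all genes (median log2 ratio 0.56 against 0.03 over all genes). Osm, the cytokine oncostatin M, was at 137, 258, 210 and 157 CPM (log2 ratio 0.91, 0.74 to 1.07) and the inhibitor Nfkbia at 207, 380, 307 and 339 CPM (0.87, 0.74 to 1.01). Nlrp3, an inflammasome sensor, was at 59.5, 104, 77.7 and 88.7 CPM (0.81, 0.55 to 1.06). Without the cell with the most UMIs of each gene, 3 genes stayed above 1.5-fold. DPBS KO also had 34 of its 161 cells under 5000 UMIs, against 13 of 294 in DPBS WT. Leaving such cells out gave 5 higher genes as well. In the excluded alveolar macrophages none of the 11 was higher at rest in KO and 1, Il1b, was lower (log2 ratio -1.0005). The shares of all genes there were 0.257% higher and 0.271% lower. Il1b, at 68.4, 123, 258 and 123 CPM, was highest in Papain WT (log2 ratio 1.92, 1.72 to 2.12 over DPBS WT). There, 9 neutrophil markers also summed to the highest level, at 159, 248, 583 and 144 CPM, with the granule genes Ngp and Camp at 0, and their part in the Il1b level was not tested.

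MHC class II genes were higher in KO than in WT, but much of the difference rested on single cells. Of 9 measured, 7 were higher at rest and 5 after papain, against 3.57% and 4.37% of all genes. The median log2 ratios were 0.73 and 0.74, against 0.03 and 0.06 over all genes. Leaving out the cell with the most UMIs of each gene reduced the counts to 2 and 1 genes, with medians of 0.06 and 0.36. After papain Cd74 (1251 against 857 CPM) and H2-Eb1 (143 against 112 CPM) then stayed higher in KO, inside 1.5-fold. Cd74, the invariant chain, had 184, 791, 315 and 1450 UMIs in its top cell. H2-Eb1, a class II chain, had 61.3% of its DPBS KO UMIs and 49.9% of its Papain KO UMIs in 1 cell. Requiring 4 markers gave 2 and 1 genes as well. Removal of likely doublets left 7 and 5 genes higher, with medians of 0.92 and 0.85. In the excluded alveolar macrophages none of the 9 genes was past 1.5-fold at rest or after papain. Among cells with no state UMI the direction at rest turned, with Cd74 at -0.44 and H2-Eb1 at -0.50. The 5 cells of Papain KO with exactly 3 markers had Cd74 at 18204 CPM and no Siglecf. Over all quiet cells, 8 dendritic cell markers summed to 9.92, 25.3, 39.8 and 13.6 CPM and 7 B cell markers to 31.0, 23.5, 60.1 and 65.7 CPM.

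**Figure D5:**
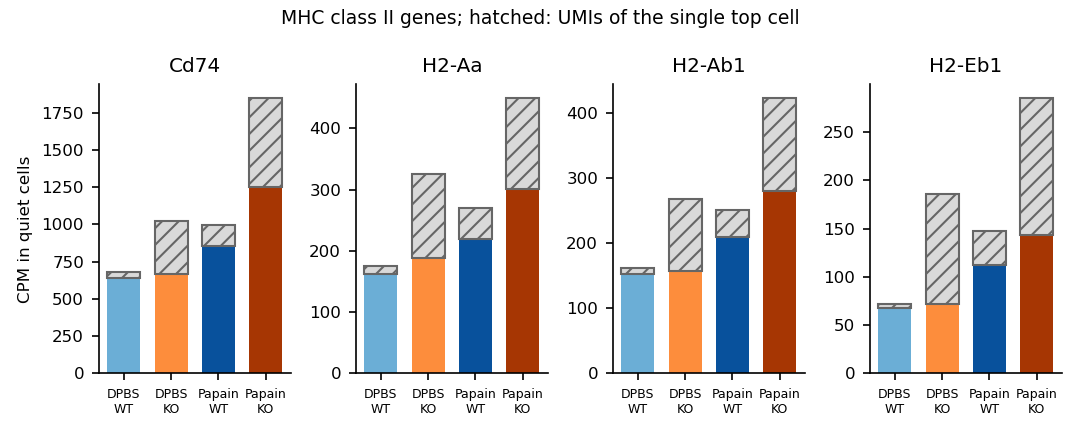
CPM of 4 MHC class II genes in quiet cells by library, with the UMIs of the single top cell hatched. Without it, Cd74 is at 639, 668, 857 and 1251 CPM.

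The sterol synthesis list had 3 of 18 genes higher in papain WT and none in papain KO, against 2.98% and 2.93% of all genes, and 7 and 2 when each cell's CPM was averaged, with Cyp51, a sterol demethylase, at 49.6, 54.7, 89.2 and 63.3 CPM (log2 ratio in WT 0.85, 0.57 to 1.12). In the excluded alveolar macrophages it was 6 of 18 in both genotypes (33.3%, against 1.29% of all genes in WT and 1.03% in KO). Of 24 alveolar macrophage identity genes, 2 were higher and 2 lower in papain WT, against 2.98% and 3.11% of all genes. In KO 1 was lower, against 2.89%. Lists of fatty acid oxidation, MHC class I and T cell signal receptors had at most 1 gene past 1.5-fold in papain WT.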

How the data were processed

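Deposited values were whole-number UMI counts per gene and barcode that, per the labels and file headers, the authors made with Cell Ranger (3.1.0 in the matrix headers) on mm10. The 4 libraries held 31053 genes. Quiet cells were found by the stated rule, raw counts were summed per library and scaled to CPM (counts per 1000000), and genes with a mean of at least 10 CPM outside the rule (7617) were compared as log2 ratios with a 1.5-fold threshold. Intervals are exact 95% ones (Poisson, Clopper-Pearson, conditional binomial) and cover counting error only. A library at 0 was set to 3 counts for bounds. With 1 library per group, no p-value was computed. Ratios of CPM are relative to each library's total, and this was checked on simulated data with known folds. The simulated sums were Poisson draws without spread between cells, so that check says nothing of such spread. Scaling by edgeR 4.0.16 and DESeq2 1.42.0 size factors, other gates, and removal of likely doublets with scanpy 1.11.5 (Scrublet) were alternatives, and no doublets were removed in the results given. Genes named were those with the largest and smallest ratios in each comparison, those shared between comparisons, and members of function lists. Members and lists were chosen with earlier results of these data known. Analyses used Python 3.11.15, scipy 1.17.1 and R 4.3.3. Promoter windows come from RefSeq, GRCm38.p6.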

Additional observations from a re-analysis of the deposited data

Results flagged for a closer look

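Of all 7617 genes, 31 were at least 1.5-fold higher after papain in WT and lower in KO, and 16 were lower in WT and higher in KO. For 19 named genes, the log2 ratio of papain over DPBS was past 1.5-fold in WT and in KO but on opposite sides of 0. The difference was not tested, since each group is 1 library. The WT ratio exceeded the KO ratio by 13.9 for Rnase2a, 11.8 for Fbp1, 10.8 for Ccl17 and 9.13 for Ccl24 (with 3 counts in place of 0), and by 8.09 for AA467197, 7.68 for Arg1 and 7.47 for Mmp12. It did so by 4.03 for Marcks, 3.87 for S100a9, 3.62 for S100a8, 2.63 for Apoe, 2.62 for Fam46c, 1.61 for Lgmn, 1.41 for Vps37b and 1.32 for Osm. The difference was -3.11 for Plac8, -2.86 for Gpr141, -2.20 for Gm26522 and -1.64 for Skint3. Single cells held most UMIs of some of them, as with 316 of 596 of S100a9 in Papain WT and 148 of 199 of Plac8 in Papain KO. Without each gene's top cells, Lgmn stayed at 0.95 in WT and -0.63 in KO, whereas S100a9 stood at 4.15 and 1.39, on the same side of 0, Apoe at 0.22 and -0.67, Ccl17 at 8.71 and -0.46, and S100a8 at 2.42 and 0.28. Among cells with a state sum of 0, the KO ratio was 1.20 for Ccl17, 2.20 for Mmp12 and 0.76 for AA467197, so these 3 were then not on opposite sides. In the excluded alveolar macrophages the KO ratio was above 0, as in WT, for Fbp1 (2.45), Arg1 (2.39), Mmp12 (1.70), AA467197 (1.65), Apoe (1.42), Marcks (1.415) and Ccl17 (1.23). It was 0.0028 for Lgmn and 0.12 for Osm. Plac8 was at 1.37 in WT and 1.77 in KO there. Gpr141 stayed on opposite sides, at -0.37 in WT and 0.64 in KO.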

How the results depend on the processing

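No paired analysis was possible because each group is 1 library. For the same reason no replicate could be left out. Of the shares and gene counts, 113 values under alternatives stayed within the limits of no change and 55 moved. Of the ratios of named genes, 639 kept their side of the 1.5-fold threshold, 56 fell back inside it and 10 reversed. The cause was not tested except where the alternative itself removes cells or genes.

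With a state sum of 0, which removes cells, the share of cells kept became 2.14, 1.61, 1.34 and 1.54% (libraries ordered as in the report), and the share of alveolar macrophages 13.6, 8.30, 13.95 and 19.96%. Leaving out cells under 5000 UMIs (chosen after seeing the data) gave 5.50, 3.32, 2.60 and 3.26% of cells kept, and 12.04% of alveolar macrophages in DPBS KO. Thinning to 3000 UMIs, which leaves out barcodes with fewer, gave 9.06, 9.08, 5.16 and 5.08% of cells kept and 53.8, 47.1, 54.0 and 63.1% of alveolar macrophages. With 2 markers, DPBS KO was at 3.68% of cells kept and 17.9% of alveolar macrophages, and Papain WT at 2.75% of cells kept.

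Higher and lower genes under a state sum of 0 numbered 351 and 429 for papain in WT, 453 and 439 for papain in KO, 451 and 289 for KO in DPBS, and 536 and 318 for KO in papain. Averaging each cell's CPM gave 400 and 384, 387 and 393, 478 and 252, and 300 lower genes for KO in papain. A mean of at least 25 CPM gave 102 and 72, 52 and 66, 128 and 18, and 114 and 63. With no filter beyond 1 UMI in each library of the pair, the counts were 1518 and 1053, 1186 and 1182, 1555 and 887, and 1388 and 1175.

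With a state sum of 0, the ratio of papain in KO became 1.20 for Ccl17, 2.20 for Mmp12 and 0.76 for AA467197, and that of KO in DPBS became -0.39 for Ccl17, -0.44 for Cd74, -0.40 for H2-Aa, -0.53 for H2-Ab1 and -0.50 for H2-Eb1. With 2 markers Ifitm3 was at 0.27 for papain in WT and -0.070 for KO in papain. Leaving out each gene's top cell was also chosen after seeing the data.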
